A study of Mus musculus with 13 samples.

Results

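Retinoids are the vitamin A compounds, and this account describes 9 genes that the small intestine uses to take them up and process them: Bco1, Rbp2, Lrat, Adh1, Aldh1a1, Aldh1a2, Aldh1a3, Cyp26b1 and Rarb. They were chosen by name, and each was read from the probe sets that carry its symbol and no other. Each had exactly 1 such probe set, so 9 probe sets of the 35556 in the deposited table stand for 9 of the 19938 genes with a probe set of their own. Affymetrix Mouse Gene 1.0 ST arrays had been hybridised with RNA of small intestinal epithelium from Apc mutant mice crossed with transgenic mice that express FPs, and all 13 arrays share that cross. Normal epithelium next to adenomas gave 4 arrays with high FP expression (FP-high) and 6 with low FP expression (FP-low), and 3 arrays came from intestinal adenomas. The series is titled as a search for aging-associated expression that precedes intestinal tumors. Apc is the tumor suppressor whose loss starts most intestinal adenomas. What FP stands for was not spelled out in the labels, which also do not name the Apc allele, the promoter of the transgene, the age of the mice or which arrays share an animal, so the p-values below measure only the spread between these samples, which may be technical. Crypts were picked one by one with fine glass capillaries and their RNA was amplified before labelling.

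Absorbed vitamin A reaches the enterocyte as beta-carotene or as retinol. Beta-carotene is split to retinal by Bco1, retinol is carried in the cell by Rbp2 and stored as retinyl ester by Lrat, and the rest can be oxidised, first to retinal by alcohol and retinol dehydrogenases such as Adh1 and then to retinoic acid by Aldh1a1, Aldh1a2 and Aldh1a3. Retinoic acid binds nuclear receptors such as Rarb and is broken down by the Cyp26 enzymes, and in the gut it is known for its part in epithelial differentiation and in the homing of lymphocytes.

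Adh1 was the member with the largest difference. It was lower in adenomas than in normal epithelium, by 2.82 on the log2 scale with all 13 arrays, where it did not pass the test, and by 3.27 without 1 normal array that stood apart, where it did. Rbp2 stayed within the range of the normal arrays in every adenoma. Without the same array, Aldh1a1, Adh1 and Aldh1a2 were higher in every FP-high than in every FP-low array, as were 1.39% of all probe sets, but no member passed the test between the normal groups. Bco1, Aldh1a2, Aldh1a3, Cyp26b1 and Rarb had mean levels below the median of the tested probe sets, and their differences were under 1 on the log2 scale.

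Promoter sequences of 4 members are printed because these members open, carry and receive the pathway and hold a short motif known for retinoid receptors or for intestinal GATA factors. They are the 250 bases before the RefSeq start of each gene on GRCm38.p6, read 5′ to 3′ on the strand of the gene, with the motif in capitals. Bco1 lies at chr8:117095615-117095864 on the plus strand, and its capitals mark a DR1 element. Rbp2 lies at chr9:98490287-98490536 on the plus strand, and its capitals mark a GATA motif read on the other strand. Adh1 lies at chr3:138277335-138277584 on the plus strand, and its capitals mark a GATA motif. Rarb lies at chr14:16575477-16575726 on the minus strand, and its capitals mark a DR5 element, the kind of site first known from this gene.
Bco1: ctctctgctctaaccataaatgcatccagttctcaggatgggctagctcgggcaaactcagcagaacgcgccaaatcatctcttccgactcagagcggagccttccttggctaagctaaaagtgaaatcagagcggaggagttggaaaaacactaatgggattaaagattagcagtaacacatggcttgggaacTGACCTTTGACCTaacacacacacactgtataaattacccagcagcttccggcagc
Rbp2: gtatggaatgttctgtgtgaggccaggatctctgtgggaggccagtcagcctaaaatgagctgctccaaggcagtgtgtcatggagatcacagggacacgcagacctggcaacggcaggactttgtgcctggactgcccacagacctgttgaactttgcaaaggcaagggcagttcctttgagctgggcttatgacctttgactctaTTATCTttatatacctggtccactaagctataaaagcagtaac
Adh1: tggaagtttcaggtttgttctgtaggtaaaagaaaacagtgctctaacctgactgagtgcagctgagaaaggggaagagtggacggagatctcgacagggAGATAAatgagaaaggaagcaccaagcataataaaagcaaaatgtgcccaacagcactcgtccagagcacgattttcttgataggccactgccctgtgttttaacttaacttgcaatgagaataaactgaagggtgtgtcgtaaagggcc
Rarb: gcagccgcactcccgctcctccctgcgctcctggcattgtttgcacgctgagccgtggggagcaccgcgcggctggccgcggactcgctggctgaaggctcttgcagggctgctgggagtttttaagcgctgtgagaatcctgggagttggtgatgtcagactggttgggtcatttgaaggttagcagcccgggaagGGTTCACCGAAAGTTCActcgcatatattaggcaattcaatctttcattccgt
The half-site searched was AGGTCA on either strand, with G also allowed as the first base and T as the third. A DR5, DR2 or DR1 element is a pair of half-sites in the same direction with 5, 2 or 1 bases between them, and its half-sites are counted among the single half-sites too. The DR5 element of Rarb lies 53 to 37 bases before the start, and 0.0883% of 32851 mouse promoter windows of the same length held such an element (29 windows). The DR1 element of Bco1 lies 56 to 44 bases before the start and reads on the strand opposite to the gene, and 0.164% of windows held one. A DR2 element was found in 0.174% of windows and in none of the members' windows, and a half-site was found in 38.6% of windows and in those of Bco1, Rbp2, Rarb and Aldh1a1. The GATA motif, AGATAA on either strand with T also allowed as the first base, lies 150 to 145 bases before the start of Adh1, 43 to 38 before that of Rbp2 and 32 to 27 before 1 of the Aldh1a1 starts, and 16.6% of windows held one. The sequence TATAAA was found in the windows of Cyp26b1, Bco1 and Rbp2, where 1 of its matches overlaps the GATA motif, and in 12.4% of all windows. Windows were found for 8 of the 9 members. A match of letters is a description of the sequence and was not tested as a binding site.

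The arrays were alike in median level, from 4.55 to 4.65 on the log2 scale, but FP-high replicate 1 stood apart. The SD over its probe sets was 1.21 against 1.89 to 2.10 on the other 12 arrays, and the median of its correlations with the rest was 0.762 against 0.943 to 0.968. The mean level of 9 epithelial markers was 6.52 on it and 7.99 to 8.89 on the others. Each of these markers but Cdx1 had its lowest value there, while Cdx1 had its highest, 7.43. The main results, and values that it moves markedly, are given with it and without it. Epithelial identity was otherwise plain, and the mean of 14 enterocyte markers ran from 6.24 to 9.94 on the other normal arrays and from 7.42 to 7.65 on the adenomas. The mean of 5 distal small intestine markers was higher on every adenoma, 7.56 to 8.02, than on the normal arrays, 4.48 to 6.28. Xist, which is expressed from an inactive X chromosome, was above 6 on all 3 adenomas and on 2 normal arrays, FP-high replicate 4 and FP-low replicate 6. It read 8.88 to 9.71 on the adenomas and 3.61 or less on the other normal arrays. The adenoma comparisons are thus largely confounded with Xist and the sex it reflects, and a fit with a term for high Xist is given as an alternative. In such samples fewer cells of a type and less RNA per cell cannot be told apart.

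**Figure D1:**
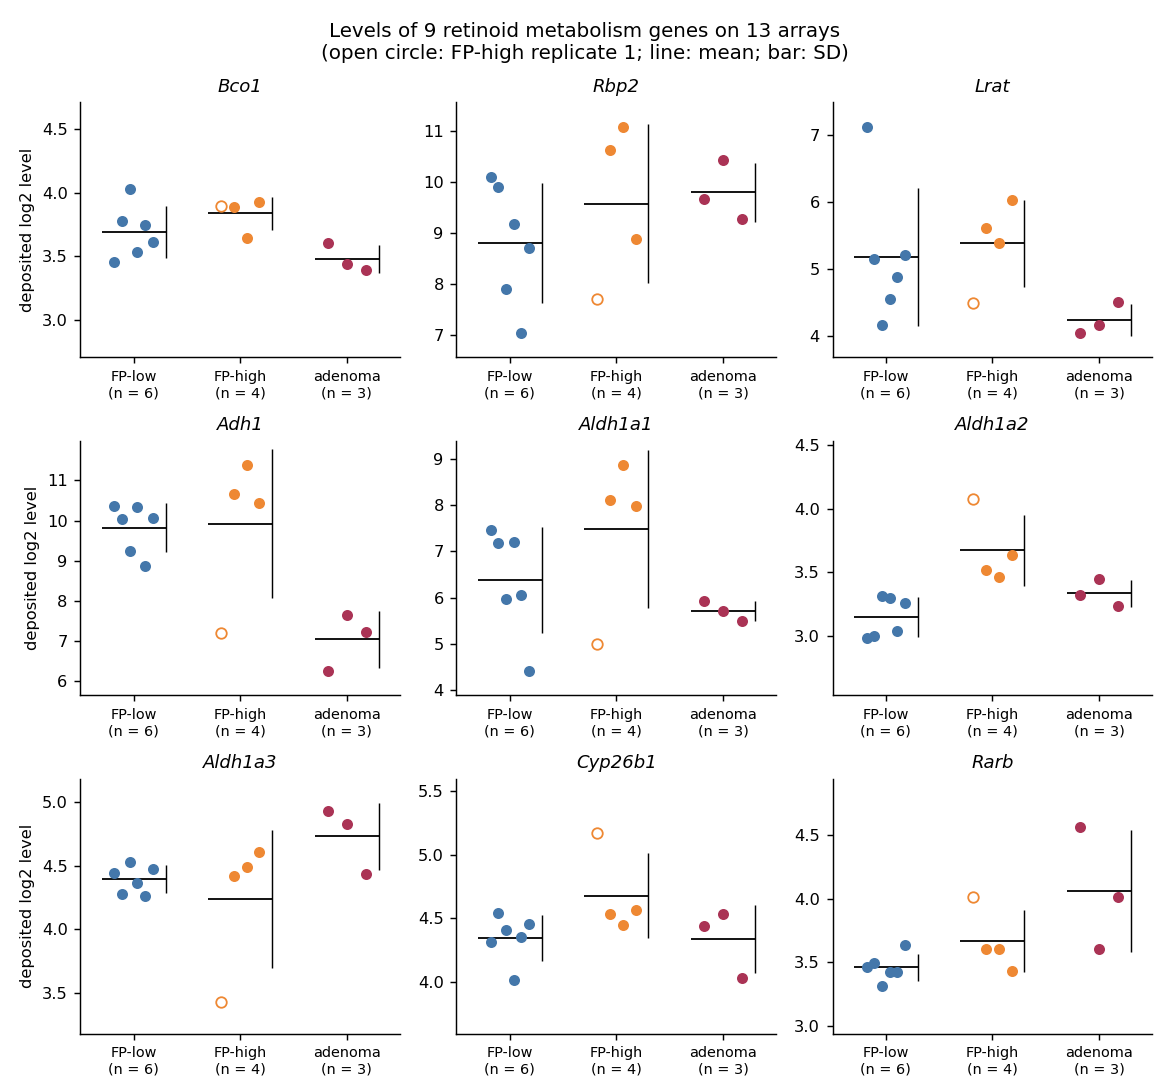
Deposited log2 level of each of the 9 genes on each array, by group, with the group mean as a line and the SD as a bar beside it. The 3 adenomas lie from 6.27 to 7.64 in Adh1 and all FP-low arrays at 8.88 or above, while FP-high replicate 1 (open circle) lies among the adenomas at 7.20.

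Differences were tested with limma across 23410 probe sets with a gene symbol, and a probe set was called where its Benjamini-Hochberg adjusted p was under 0.05. With all arrays, 0 of the 9 members were called in any of the 4 comparisons. The share of all probe sets called was 0% between FP-high and FP-low, 0.551% between adenoma and FP-low, 0.765% between adenoma and FP-high and 0.91% between adenoma and the average of both normal groups. At an unadjusted p under 0.05 stood 1 of 9 members between the normal groups (Aldh1a2) and 12.7% of all probe sets, and 2 of 9 members in each adenoma comparison, where the shares of all probe sets were 7.45%, 15.7% and 10.6% in the same order. Without FP-high replicate 1, 1 member, Adh1, was called in all 3 adenoma comparisons, where 1.58%, 1.1% and 2.08% of all probe sets were called, and 0 members and 0% of probe sets between the normal groups. The adenoma comparisons share their adenoma arrays, and that with the average shares its normal arrays with the others.

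The genes that first handle vitamin A inside the cell come first. Bco1, which splits beta-carotene, read 3.89, 3.89, 3.64 and 3.93 on FP-high replicates 1 to 4. On FP-low arrays its lowest value was 3.45, its median 3.68 and its highest 4.03, and the adenomas read 3.61, 3.44 and 3.39. Every adenoma was below every FP-high array, but adenomas and FP-low arrays overlapped. Such a lack of overlap downwards was found for 10.4% of all probe sets. The adenoma minus FP-high difference was -0.36 ± 0.16 (SE; n = 3 and 4; limma adjusted p = 0.307), and -0.34 ± 0.16 (adjusted p = 0.310) once FP-high replicate 1 was dropped. Against FP-low it was -0.21 ± 0.15 (adjusted p = 0.862), and FP-high exceeded FP-low by 0.15 ± 0.13 (adjusted p = 0.556).

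Rbp2 binds retinol and retinal in the enterocyte and is among the abundant proteins of absorbing cells. It read 7.71, 10.62, 11.07 and 8.88 on FP-high replicates 1 to 4 and 9.66, 10.43 and 9.28 on the adenomas. FP-low arrays ran from 7.05 to 10.09 with a median of 8.94. All 3 adenomas lay inside the span of the normal arrays, and the order of the group means, 8.80 ± 1.17 in FP-low, 9.57 ± 1.56 in FP-high and 9.79 ± 0.59 in adenomas (SD; n = 6, 4 and 3), did not separate any neighbours beyond their spread. The adenoma minus normal difference was 0.60 ± 0.72 (adjusted p = 0.721), with a 95% interval from -0.96 to 2.16, and 0.29 ± 0.64 (adjusted p = 0.841) without FP-high replicate 1. Against FP-high it was 0.22 ± 0.83 (adjusted p = 0.883) with all arrays, and its sign turned to -0.40 ± 0.77 (adjusted p = 0.823) without FP-high replicate 1.

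Lrat makes the retinyl esters that are packed for export or kept in the cell. It read 4.49, 5.62, 5.39 and 6.03 on FP-high replicates 1 to 4 and 4.05, 4.17 and 4.51 on the adenomas. Its FP-low levels had a lowest value of 4.17, a median of 5.01 and a highest value of 7.12, the last on replicate 1, far above the next. The adenomas were low, but FP-low replicate 3 and FP-high replicate 1 lay among them. The adenoma minus normal difference was -1.04 ± 0.49 (adjusted p = 0.478), and -1.19 ± 0.47 (adjusted p = 0.232) without FP-high replicate 1. Against FP-high alone it was -1.14 ± 0.56 (adjusted p = 0.335) and -1.44 ± 0.57 (adjusted p = 0.253). Of 12 fits that left out FP-high replicate 1 and 1 other array, Lrat was called against FP-high in 1. That fit left out FP-low replicate 1 (adjusted p = 0.0395), an array on neither side of this comparison. The highest adjusted p of the 12 was 0.453.

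Adh1 encodes the class I alcohol dehydrogenase, which oxidises retinol as well as ethanol and is known to be strong in small intestinal epithelium. It read 7.20, 10.67, 11.37 and 10.44 on FP-high replicates 1 to 4 and 6.27, 7.64 and 7.24 on the adenomas. Its FP-low levels had a lowest value of 8.88, a median of 10.05 and a highest value of 10.35. Every adenoma was below every FP-low array, as for 5.64% of all probe sets. FP-high replicate 1 lay among the adenomas, and every adenoma was below the other FP-high arrays, as for 15.6% of all probe sets. The group means were 9.82 ± 0.61 in FP-low, 9.92 ± 1.86 in FP-high, 10.83 ± 0.49 in FP-high without replicate 1 and 7.05 ± 0.71 in adenomas (SD; n = 6, 4, 3 and 3).

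With all arrays, Adh1 was lower in adenomas than in FP-low by 6.82-fold (-2.77 ± 0.73, SE; limma adjusted p = 0.170), than in FP-high by 7.31-fold (-2.87 ± 0.78; adjusted p = 0.142) and than in the average of both by 7.06-fold (-2.82 ± 0.68; adjusted p = 0.0915). FP-high replicate 1 is on neither side of the difference from FP-low, so leaving it out could not change that difference. Without it the error, which rests on the spread in all 3 groups, fell, and the difference stood at -2.77 ± 0.38 (adjusted p = 0.00318). That from FP-high became -3.78 ± 0.44, or 13.7-fold (adjusted p = 0.00153), and that from the average -3.27 ± 0.37, or 9.67-fold (adjusted p = 0.000715). In these 3 comparisons 0.513%, 0.192% and 0.615% of all probe sets were called lower. It was lower in 3 of 3 adenomas than in 9 of 9 other normal arrays, and 3.28% of probe sets were.

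**Figure D2:**
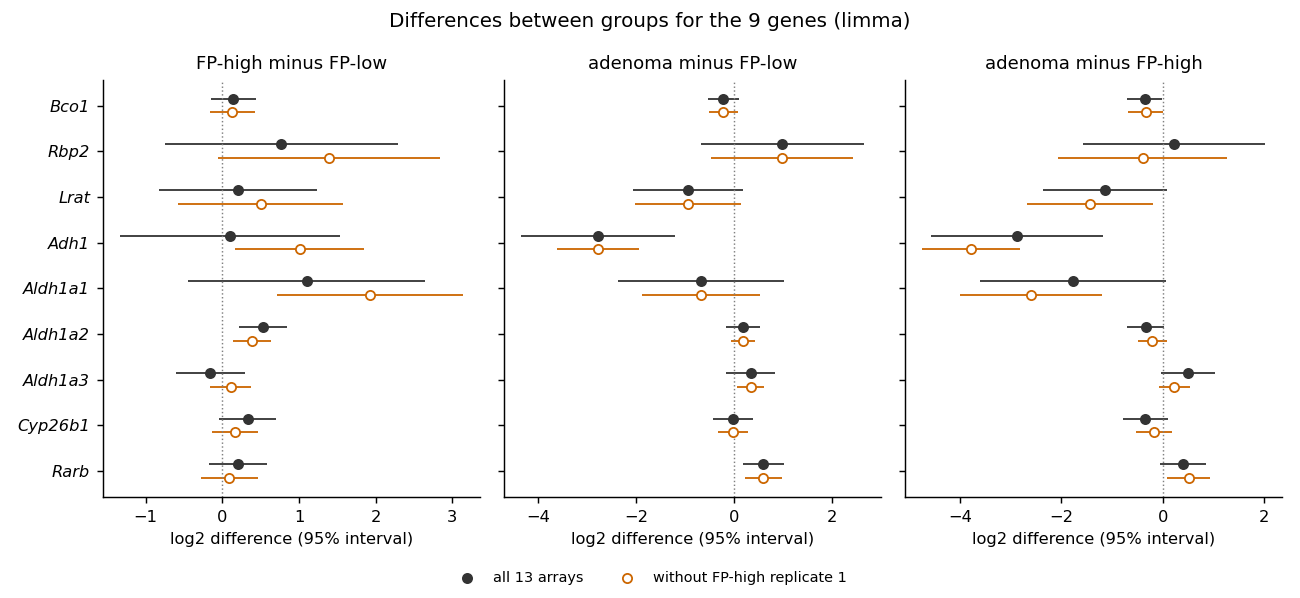
Differences of group means on the log2 scale with 95% intervals from limma for the 9 genes, filled for all 13 arrays and open where FP-high replicate 1 was dropped. The intervals of Adh1 lie below 0 in both adenoma panels in both fits, from -4.34 to -1.20 against FP-low with all arrays, while those of Rbp2 cross 0 in every panel.

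The Adh1 call depended on how FP-high replicate 1 was treated. It was also called with all 13 arrays after quantile normalization (against the average, -3.08, adjusted p = 0.00239), after scaling to a common median and SD (-2.90, adjusted p = 0.0117) and with array weights (-3.12, adjusted p = 0.000133). In these 3 settings 0.957%, 0.995% and 4.93% of all probe sets were called against the average. A term for arrays with high Xist gave -3.20 (adjusted p = 0.479) on 13 arrays and the same -3.20 (adjusted p = 0.0273) on 12, since with this term the normal side rests on the 2 normal arrays with high Xist. With the replicate number as a block the values were -2.76 (adjusted p = 0.280) and -3.32 (adjusted p = 0.0291). In the comparison with FP-high, the blocked value without FP-high replicate 1 was -3.70 (adjusted p = 0.0566), which ends the call, and in that with FP-low the Xist term gave -2.69 (adjusted p = 0.0934), which ends it too. When FP-high replicate 1 and each of the other 12 arrays in turn were left out, Adh1 was called in 12 of 12 fits in each adenoma comparison. Against the average, adjusted p ran from 0.000487 to 0.00456. Leaving out FP-high arrays cannot move the difference from FP-low, and the shares of all probe sets called in these fits are not given here. The adenoma difference of Adh1 was below 0 in every setting run.

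**Figure D3:**
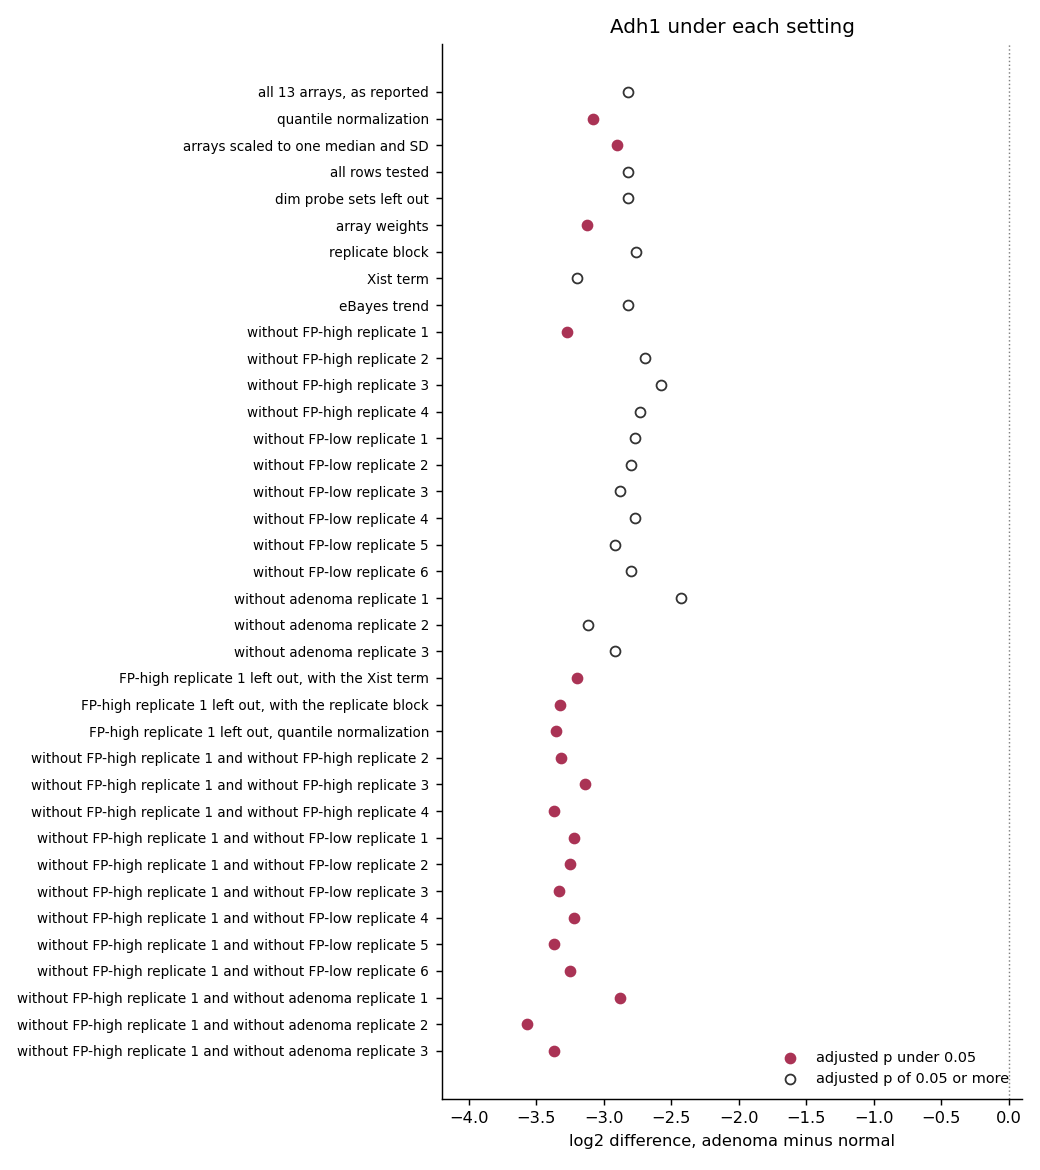
Log2 difference of Adh1 between adenomas and the average of the normal groups under each setting, with filled points where the adjusted p was under 0.05. All points lie between -3.57 and -2.43, and those with FP-high replicate 1 left out are filled throughout.

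Markers moved with the adenomas too. The mean of the distal markers given above was high on all 3. Among these markers Fabp6 lay apart (12.63 to 13.23 on the adenomas, 9.43 or less on the normal arrays), as did Slc10a2 (6.00 to 6.61, and 3.63 or less). Slc51a, Slc51b and Fgf15 overlapped the normal arrays. The mean of 5 Paneth cell markers was 8.46, 9.27 and 10.34 on the adenomas. On the normal arrays it was 10.25 to 11.72, except on FP-high replicate 1, which had 7.20. The mean of 10 macrophage and dendritic cell markers was 4.32 to 4.41 on the adenomas and 4.51 to 5.37 on the normal arrays. In that list adenomas and FP-low arrays lay apart in the mean of Lyz2, Cd74 and H2-Ab1, which was 5.76 to 5.99 on the adenomas, 6.86 to 8.18 on FP-low and 5.36 to 8.69 on FP-high arrays, while the mean of the other 7 overlapped (3.61 to 3.83 on the adenomas and 3.68 to 4.14 on the normal arrays). Ptprc, a marker of all leukocytes, read 4.77 to 5.29 on the adenomas and 3.75 to 4.67 on the normal arrays. It was taken from a list of 9 T lymphocyte markers whose mean overlapped, with 4.32 to 4.90 on the adenomas and 4.12 to 5.72 on the normal arrays. The part of these markers in the Adh1 result was not tested. Enterocyte marker means overlapped between the groups, and the part of enterocytes in the Adh1 result was not tested. FP-low replicates 6 and 3, whose enterocyte means of 6.24 and 6.69 lay below those of all 3 adenomas, read 10.06 and 9.25 in Adh1. FP-low replicate 5, with an enterocyte mean of 7.45 inside the range of the adenomas, read 8.88.

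**Figure D4:**
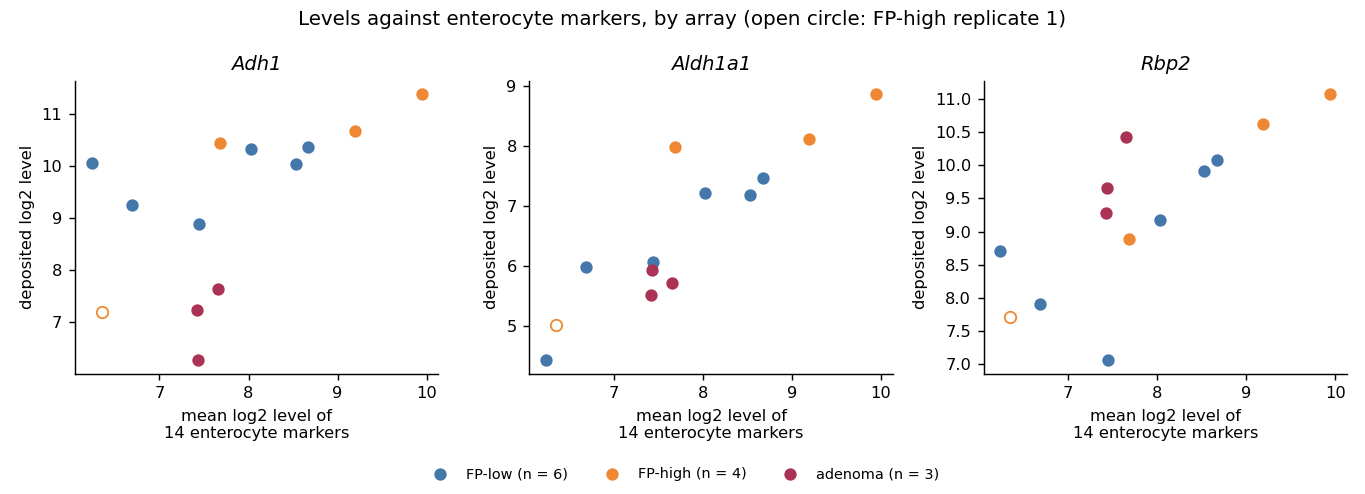
Deposited log2 level of Adh1, Aldh1a1 and Rbp2 against the mean log2 level of 14 enterocyte markers on each of the 13 arrays, coloured by group. At enterocyte means from 7.42 to 7.65 the adenomas read 6.27 to 7.64 in Adh1, 5.51 to 5.92 in Aldh1a1 and 9.28 to 10.43 in Rbp2, and FP-low replicate 5, at 7.45, read 8.88, 6.07 and 7.05.

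Between the normal groups Adh1 differed by 0.10 ± 0.66 (adjusted p = 0.941) with all arrays and by 1.01 ± 0.38 (adjusted p = 0.494) without FP-high replicate 1. In the latter case each of the 3 FP-high arrays was above each FP-low array, as for 1.39% of all probe sets.

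The neighbours of Adh1 on chromosome 3 are Adh7 and Adh6a, and they were looked at after the value of Adh1 was known. Adh6a, a further alcohol dehydrogenase, read 3.75, 4.56 and 4.83 on the adenomas, 4.69, 9.44, 9.997 and 7.98 on FP-high replicates 1 to 4 and from 5.42 to 9.06 on FP-low arrays. Like Adh1, and like 3.28% of all probe sets, it was lower on every adenoma than on every normal array other than FP-high replicate 1. Its adenoma minus average difference was -3.25 ± 0.97 (adjusted p = 0.209) with all arrays and -3.80 ± 0.70 (adjusted p = 0.0163) without that array. Adh7, on the other side, read 3.81, 3.71 and 3.69 on the adenomas and from 3.42 to 4.53 on the normal arrays. Genes of this cluster are alike in sequence, and cross-hybridisation between their probes was not tested.

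Aldh1a1 is a retinal dehydrogenase of epithelial cells that makes retinoic acid. It read 5.01, 8.11, 8.86 and 7.98 on FP-high replicates 1 to 4 and 5.92, 5.71 and 5.51 on the adenomas. The lowest FP-low level was 4.42, the median 6.62 and the highest 7.46. FP-high replicates 2 to 4 were the highest of all arrays, while FP-high replicate 1 and FP-low replicate 6 were the lowest. FP-high exceeded FP-low by 1.10 ± 0.71 (adjusted p = 0.444), and by 1.93 ± 0.55, or 3.81-fold (adjusted p = 0.343), without FP-high replicate 1.

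In adenomas Aldh1a1 lay below FP-high, with a difference of -1.77 ± 0.84 (adjusted p = 0.328) with all arrays and of -2.60 ± 0.64, or 6.07-fold (adjusted p = 0.0818), without FP-high replicate 1. Array weights with all arrays gave an adjusted p of 0.0493 for this difference. Of 12 fits that left out FP-high replicate 1 and 1 other array, Aldh1a1 was called in 1, that without FP-low replicate 6 (adjusted p = 0.0137). The highest adjusted p of the 12 was 0.193. Against the average of the normal groups the same fit alone was called (adjusted p = 0.0210), and the highest adjusted p was 0.349. Against FP-low the difference was -0.67 ± 0.78 (adjusted p = 0.973), with a 95% interval from -2.37 to 1.02, and with the Xist term its sign turned to 0.10 (adjusted p = 1.00). Enterocyte markers moved with Aldh1a1 on some arrays: the 3 high FP-high arrays had enterocyte means of 9.19, 9.94 and 7.68, and the 2 arrays lowest in Aldh1a1, FP-low replicate 6 and FP-high replicate 1, had the lowest, 6.24 and 6.35. Other arrays departed from this: FP-low replicates 1, 2 and 4, with enterocyte means of 8.67, 8.53 and 8.03, read lower in Aldh1a1 (7.46, 7.18 and 7.21) than FP-high replicate 4. The part of enterocytes in the Aldh1a1 result was not tested.

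Aldh1a7, a close paralog beside Aldh1a1 on chromosome 19 that was also chosen after values were seen, read 4.55, 5.09 and 5.09 on the adenomas, 5.46 to 5.94 on the FP-high arrays and 4.68 to 5.65 on the FP-low arrays, which overlapped the adenomas. Its adenoma minus FP-high difference was -0.77 ± 0.25 (adjusted p = 0.214), and against FP-low it was -0.29 ± 0.23 (adjusted p = 0.912). Anxa1, the annexin gene on the other side of Aldh1a1, went the other way and was called: it rose by 4.51 ± 0.23 in adenomas against the average of the normal groups (adjusted p = 2.87e-07), from 2.51 to 3.54 on the normal arrays to 6.89, 7.25 and 7.91 on the adenomas.

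Aldh1a2 is the retinal dehydrogenase known mainly from stromal and dendritic cells of the gut. It read 4.08, 3.52, 3.47 and 3.64 on FP-high replicates 1 to 4 and 3.32, 3.45 and 3.24 on the adenomas. On FP-low arrays the lowest was 2.99, the median 3.15 and the highest 3.31. It was the 1 member that was higher on every FP-high than on every FP-low array with all arrays kept, as were 0.743% of all probe sets. The difference was 0.52 ± 0.14 (adjusted p = 0.256), and 0.39 ± 0.11 (adjusted p = 0.358) without FP-high replicate 1, the array with the highest value and the lowest spread. The means of macrophage and dendritic cell markers, 4.51 to 5.37 on FP-high and 4.64 to 5.11 on FP-low arrays, overlapped. The adenomas lay below every FP-high array, as for 10.4% of all probe sets, and overlapped FP-low. The difference from FP-high was -0.34 ± 0.17 (adjusted p = 0.340), or -0.20 ± 0.13 (adjusted p = 0.465) once FP-high replicate 1 was dropped.

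Aldh1a3, the third enzyme of this kind, read 3.43, 4.42, 4.49 and 4.61 on FP-high replicates 1 to 4 and 4.93, 4.83 and 4.43 on the adenomas. Its FP-low levels had a lowest value of 4.26, a median of 4.40 and a highest value of 4.53. FP-high replicate 1 was the lowest array, and adenoma replicate 3 lay among the normal arrays. The adenoma minus normal difference was 0.42 ± 0.21 (adjusted p = 0.515), and 0.28 ± 0.12 (adjusted p = 0.254) without FP-high replicate 1. The sign between the normal groups turned from -0.16 ± 0.21 to 0.11 ± 0.12 (adjusted p = 0.683 and 0.857) when that array was left out.

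Cyp26b1 breaks retinoic acid down. It read 5.17, 4.53, 4.44 and 4.57 on FP-high replicates 1 to 4 and 4.44, 4.54 and 4.03 on the adenomas. FP-low arrays ran from 4.02 to 4.54 with a median of 4.38. All groups overlapped, and FP-high replicate 1 alone stood above the rest. The adenoma minus normal difference was -0.18 ± 0.18 (adjusted p = 0.678), with a 95% interval from -0.56 to 0.20. On the 12 other arrays it was -0.095 ± 0.13 (adjusted p = 0.741).

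Rarb is a retinoic acid receptor that retinoic acid itself induces through the DR5 element printed above. It read 4.01, 3.61, 3.61 and 3.43 on FP-high replicates 1 to 4 and 4.56, 3.61 and 4.01 on the adenomas. Its FP-low levels had a lowest value of 3.32, a median of 3.44 and a highest value of 3.64. Adenoma replicates 1 and 3 were the highest arrays with FP-high replicate 1, and adenoma replicate 2 lay among the normal arrays. The adenoma minus FP-low difference was 0.60 ± 0.19 (adjusted p = 0.341), and 0.60 ± 0.17 (adjusted p = 0.111) without FP-high replicate 1. With adenoma replicate 2 left out as well it was 0.83 and was called (adjusted p = 0.0320). This was the only call in 12 fits that left out FP-high replicate 1 and 1 other array. The highest adjusted p of the 12 was 0.432. The mean of 6 endothelial markers was 4.14, 4.02 and 3.87 on the adenomas, 4.42 on FP-high replicate 1 and 3.58 to 3.92 on the other normal arrays. That of 10 fibroblast and smooth muscle markers was 4.84, 4.61 and 4.28 on adenoma replicates 1 to 3. On the normal arrays it was 4.17 to 4.70. Their part in the Rarb values was not tested.

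Counted over the list, 8 of 9 members had a higher mean in FP-high than in FP-low with all arrays, with a median difference of 0.21 against 0.05 over all probe sets tested. On the 12 other arrays the count was 9 of 9, with a median of 0.39 against 0.02, and 3 of 9 (Adh1, Aldh1a1 and Aldh1a2) were higher on every FP-high than on every FP-low array, against 1.39% of all probe sets. In adenomas against the average of the normal groups 6 of 9 had a lower mean, with a median of -0.18 against -0.09 with all arrays and of -0.095 against -0.075 on the 12 other arrays. Every adenoma was below every FP-high array in 2 of 9 members with all arrays (Bco1 and Aldh1a2), where 10.4% of all probe sets were, and in 5 of 9 on the 12 other arrays (these and Lrat, Adh1 and Aldh1a1), where 15.6% of all probe sets were. The share of all probe sets with a difference of the same sign was not counted, and their medians lay on the same side of 0. The members were chosen with earlier results of these data known, so these counts describe them and test nothing.

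The rest of the retinoid pathway was taken from 6 lists with 51 genes besides the members, of which 49 had a probe set. With all arrays 0 of 49 were called in any of the 4 comparisons, and at an unadjusted p under 0.05 stood 5, 7, 9 and 9 in the order used above. Without FP-high replicate 1, 0 were called between the normal groups and against FP-low, 1 was called lower against FP-high and 2 were called lower against the average, out of the shares of probe sets already given. The median adenoma minus average difference of the 49 was -0.17, against -0.09 over all probe sets tested, and 36 of 49 were below 0. On the 12 other arrays these values were -0.11, -0.075 and 35 of 49. How many of all probe sets were below 0 was not counted.

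**Figure D5:**
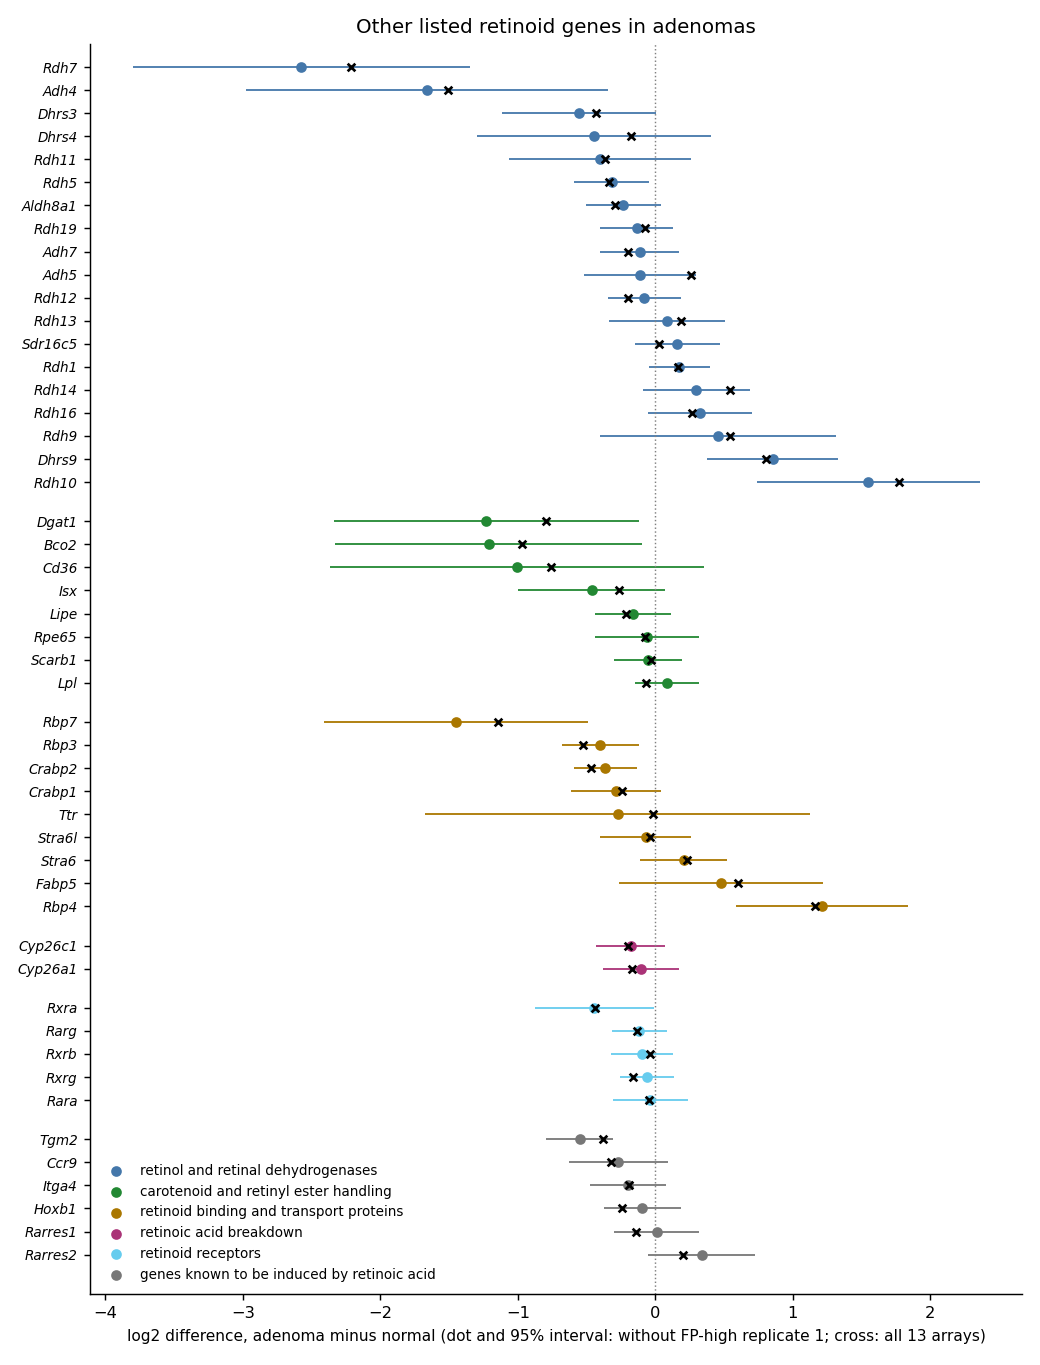
Adenoma minus average normal difference on the log2 scale for the 49 other listed genes, by list, with the value and 95% interval without FP-high replicate 1 (dot and line) and the value with all 13 arrays (cross). Rdh7 lies lowest, at -2.57, and Rdh10 highest, at 1.55.

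Among 19 retinol and retinal dehydrogenases, 0 were called with all arrays. Rdh7, a microsomal enzyme that oxidises retinol, read 4.28, 4.21 and 3.74 on the adenomas, 4.71, 6.84, 8.51 and 7.46 on FP-high replicates 1 to 4 and from 4.29 to 7.10 on FP-low arrays. Every adenoma was below every normal array, as for 2.04% of all probe sets, though by a small gap from FP-low replicate 3. The difference from FP-high was -2.80 ± 0.82 (adjusted p = 0.167), and -3.53 ± 0.68, or 11.5-fold lower (adjusted p = 0.0305), without FP-high replicate 1. Against the average it was -2.21 ± 0.71 (adjusted p = 0.248) and -2.57 ± 0.56 (adjusted p = 0.0379). With the replicate block added on the 12 other arrays, both calls of Rdh7 were lost (-3.52, adjusted p = 0.153, and -2.61, adjusted p = 0.146).

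Rdh10, the retinol dehydrogenase on which embryonic retinoic acid depends, lay in the other direction. It read 8.35, 8.45 and 7.77 on the adenomas, 4.92, 7.56, 7.12 and 5.46 on FP-high replicates 1 to 4 and from 6.07 to 6.99 on FP-low arrays. Every adenoma was above every normal array, as for 1.93% of all probe sets. The difference from the average was 1.77 ± 0.46 (adjusted p = 0.124), and 1.55 ± 0.37 (adjusted p = 0.0577) without FP-high replicate 1. Dhrs9, a short-chain dehydrogenase that also takes retinol, read 4.50, 5.24 and 4.69 on the adenomas and from 3.44 to 4.42 on the normal arrays, a difference of 0.81 ± 0.22 (adjusted p = 0.154), or 0.85 ± 0.22 (adjusted p = 0.0771) without FP-high replicate 1. Rdh9 was higher on every FP-high array (4.88 to 6.97) than on every FP-low array (3.55 to 4.85), as were 0.743% of all probe sets. The difference was 1.25 ± 0.38 (adjusted p = 0.291), and the adenomas read 6.01, 5.03 and 5.40.

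Other genes of this list were not called either. Adh4, a class II alcohol dehydrogenase, had an adenoma minus FP-high difference of -1.88 ± 0.70 (adjusted p = 0.251). Adh5, the glutathione-dependent formaldehyde dehydrogenase, read 8.02, 8.36 and 8.26 on the adenomas and 7.87 to 8.75 on the normal arrays other than FP-high replicate 1, which read 5.36. Rdh14 had an adenoma minus average difference of 0.54 ± 0.36 (adjusted p = 0.589), which was 0.30 ± 0.18 (adjusted p = 0.416) on the 12 other arrays. For Dhrs4 it was -0.18 ± 0.51 (adjusted p = 0.878) and -0.45 ± 0.39 (adjusted p = 0.584). Dhrs4 had a lower mean in FP-high than in FP-low, with a difference of -1.36 ± 0.49 (adjusted p = 0.364) that was -0.83 ± 0.41 (adjusted p = 0.606) on the 12 other arrays.

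Of 8 genes that handle carotenoids and retinyl esters, 8 had a mean below 0 in adenomas against the average with all arrays and 7 on the 12 other arrays. Their median differences were -0.24 and -0.31, against -0.09 and -0.075 over all probe sets tested, and 0 were called. The share of all probe sets below 0 was not counted. Isx, the homeobox repressor of Bco1 that retinoic acid induces, read 6.68, 6.51 and 6.46 on the adenomas and from 6.90 to 7.80 on FP-low arrays, without overlap, as for 5.64% of all probe sets, and the difference was -0.74 ± 0.37 (adjusted p = 0.715). On FP-high replicates 1 to 4 it read 5.16, 6.62, 7.43 and 6.15. Cd36, a scavenger receptor that takes up lipids and carotenoids, read 7.31 on FP-high replicate 3 and 4.25 or less on every other array.

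Of 9 measured binding and transport proteins, 0 were called. Rbp4, which carries retinol in the blood, read 6.73, 5.07 and 5.19 on the adenomas and from 4.06 to 4.93 on the normal arrays. All 3 adenomas were above all normal arrays, as for 1.93% of all probe sets. The difference from the average was 1.16 ± 0.28 (adjusted p = 0.101), or 1.21 ± 0.29 (adjusted p = 0.0537) without FP-high replicate 1. Rbp7, a cellular retinol-binding protein, read 4.16, 5.68 and 6.72 on the adenomas and from 6.36 to 7.49 on FP-low arrays, with a difference of -1.45 ± 0.61 (adjusted p = 0.602).

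The 2 other Cyp26 enzymes and the 5 other retinoid receptors had means below 0 in adenomas against the average. Their median differences were -0.19 and -0.13, against -0.09 over all probe sets tested, and 0 of these 7 were called. Again the share of all probe sets below 0 was not counted. Of 12 measured genes known to be induced by retinoic acid, 0 were called with all arrays and 1 on the 12 other arrays. This was Tgm2, a transglutaminase, which read 5.10, 5.41 and 4.96 on the adenomas, 4.42 on FP-high replicate 1 and from 5.54 to 5.82 on the other normal arrays. Its adenoma minus average difference was -0.55 ± 0.11 (adjusted p = 0.0272) without FP-high replicate 1 and -0.38 ± 0.25 (adjusted p = 0.584) with it. The replicate block on the 12 other arrays ended the call of Tgm2 (-0.54, adjusted p = 0.190).

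The genes most like each member were found by Pearson's r of the log2 level over all 13 arrays, given with the r over 12 arrays without FP-high replicate 1. These arrays share the group differences and the spread of that array, so the values are a description. For Adh1 they were Nlrp6 (0.95 and 0.95), Otc (0.93 and 0.93) and Naprt (0.93 and 0.92). For Aldh1a1 they were Slc25a11 (0.94 and 0.93), Gm11437 (0.94 and 0.94) and Sis, the brush border sucrase-isomaltase (0.93 and 0.92). For Rbp2 they were Myo15b (0.93 and 0.92), Cideb (0.92 and 0.92) and Trim31 (0.92 and 0.91), and for Lrat they were Gm10494 (0.88 and 0.94), Pnmal2 (0.86 and 0.87) and Med20 (0.83 and 0.89). Rarb was nearest to Slfn4 (0.94 and 0.93), Plat (0.92 and 0.92) and Ift57 (0.91 and 0.90), and Bco1 to Ccdc144b, Nppc and Dlx6 (0.93, 0.93 and 0.92 over 13 arrays).

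For the other 3 members the likeness leaned on FP-high replicate 1. Aldh1a2 was nearest to Tll2 (0.94 and 0.86), 4930417O22Rik (0.93 and 0.84) and Med12l (0.93 and 0.87). Aldh1a3 was nearest to Dsg2 (0.95 and 0.85), Fam210b (0.95 and 0.81) and Tbxa2r (0.95 and 0.81). Cyp26b1 was nearest to Katnal2 (0.96 and 0.90), Pde7b (0.96 and 0.89) and Sec1 (0.95 and 0.89).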

How the data were processed

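RNA of 13 samples was measured on 1-colour arrays. The deposited log2 levels were made by the authors with Affymetrix Expression Console and Transcriptome Analysis Console, per the submitters' processing notes. The background correction, normalization and summarisation are not given in the sources, and the log2 scale was read from the values. Gene symbols come from GEO's platform annotation, which can be old. Of 35556 rows, 23410 carried a symbol and were tested, and 12146 did not. The brightest 1-symbol probe set stands for a gene.

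Groups were compared with limma 3.58.1 in R 4.3.3 (lmFit and eBayes, two-sided) on all 13 arrays, with p-values adjusted over all tested probe sets. The normal average weights FP-high and FP-low equally. The step was tested on simulated data. The members and lists were chosen with earlier results of these data known, and so was leaving out FP-high replicate 1. Named genes are the members, listed genes called in any comparison or, per comparison, among the 3 largest differences either way, and the 3 nearest genes of each member by correlation. Tgm2 was named after its call without FP-high replicate 1 was seen. Groups share replicate numbers. The deviations of FP-high and adenoma arrays of the same number had r of 0.233, 0.102 and 0.220, all over 0.1. That bound would take the numbers to pair them, from the data alone, but the main fit used no pairing. Same-number pairs that hold an FP-low array had r between -0.361 and 0.178. Arrays of different numbers reached values as high, 0.204 for FP-high replicate 2 with adenoma replicate 3 and 0.347 for FP-high replicate 3 with FP-low replicate 4. These r therefore cannot show whether the numbers pair arrays, and the replicate block is given as an alternative only. The number of arrays limits the precision. The alternatives were another normalization, other probe set filters, array weights, the replicate block, a term for high Xist, only the groups compared, a prior trend and each array left out.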

Additional observations from a re-analysis of the deposited data

Results flagged for a closer look

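Within groups of 4 to 10 arrays, the gap of the highest or lowest array to its neighbour was compared with Dixon's critical value. Of 44 groups (the members and the named pathway genes in FP-high and FP-low), 6 held such an array, and chance gives about 1 in 20. FP-high replicate 1, which stands apart over all probe sets, gave 3 of the 6: Aldh1a3 read 3.43 on it, Cyp26b1 read 5.17 and Adh5 read 5.36. Lrat read 7.12 on FP-low replicate 1. Bco1 read 3.64 on FP-high replicate 3, and Dhrs9 read 3.54 on FP-high replicate 4.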

How the results depend on the processing

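With all arrays 0 members were called in any comparison. In the comparison with FP-low 1 member (Adh1) was called after quantile normalization, scaling to a common median and SD, with array weights, with only the groups compared and, chosen after seeing the data, with FP-high replicate 1 left out together with the replicate block or quantile normalization. In that with FP-high, 1 member was called after quantile normalization (0.701%) or scaling (0.854%), and 2, Adh1 and Aldh1a1, with array weights (2.54%). With FP-high replicate 1 left out, 1 was called with the Xist term (0.436%) or quantile normalization (1.46%). Against the average, 1 was called after quantile normalization (0.957%), scaling (0.995%) or array weights (4.93%). With FP-high replicate 1 left out, 1 was called with the Xist term (0.406%), the replicate block (0.675%) or quantile normalization (2.58%). Without FP-high replicate 1 alone, 1 member was called in each adenoma comparison (1.58%, 1.1% and 2.08% in the same order). Over the fits that left out an array, or FP-high replicate 1 and another array, 0 to 2 members were called in each adenoma comparison. The shares of all probe sets called in those fits are not given here. Of 49 pathway genes, those called against FP-low numbered 4 with array weights (3.71% of all probe sets were called), 1 with only the groups compared (1.47%), 1 with FP-high replicate 1 left out and the Xist term (0.269%), 1 with quantile normalization in its place (1.74%), and 0 to 2 over the fits without arrays. Against FP-high they numbered 1 with array weights (2.54%), 2 with FP-high replicate 1 left out and quantile normalization (1.46%), and 0 to 1 without arrays. Against the average they numbered 8 with array weights (4.93%), 1 with FP-high replicate 1 left out and the Xist term (0.406%), 2 with quantile normalization in its place (2.58%), and 0 to 2 without arrays.

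No called difference changed its sign. Among those not called, FP-high minus FP-low turned for Bco1 to -0.052 after quantile normalization and -0.015 after scaling, and for Adh1 to -0.073 with the replicate block. For Aldh1a3 it turned to 0.086 with array weights and, with FP-high replicate 1 left out, to 0.090 with the Xist term, 0.14 with the replicate block and 0.082 with quantile normalization. Over the fits without arrays it ran from -0.012 to 0.89 for Lrat, from -0.38 to 1.20 for Adh1 and from -0.28 to 0.15 for Aldh1a3. Adenoma minus FP-low turned for Aldh1a1 to 0.10 with the Xist term, or 0.61 with FP-high replicate 1 left out too, and for Cyp26b1 to 0.00048 with array weights, and ran from -0.11 to 0.14 without arrays. Adenoma minus FP-high turned for Rbp2 to -0.27 after quantile normalization, -0.16 after scaling, -0.38 with array weights and, with FP-high replicate 1 left out, -0.82 with the replicate block and -0.34 with quantile normalization, and ran from -1.05 to 0.72 without arrays. Adenoma minus average turned for Rbp2 to -0.28 and for Aldh1a2 to 0.057 with FP-high replicate 1 left out and the replicate block, and for Aldh1a2 to 0.019 with array weights. Without arrays it ran from -0.033 to 0.86 for Rbp2, from -0.13 to 0.041 for Aldh1a2 and from -0.28 to 0.057 for Cyp26b1. The cause was not tested.

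With all arrays the replicate block changed no call, since none was made. Each member had 1 probe set, so the alternative of using other probe sets gave no value, the filter on dim probe sets left out 5 members, and the fit of only the groups compared was not run for the average. These 5 members lie below the median level of the tested probe sets, and the table gives no signal over background for them, so small differences in them cannot be set against background.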
